A study of Rattus norvegicus with 91 samples.

Results

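Described here are 5 genes of MHC class II presentation, read in rat liver: Cd74, RT1-Da, RT1-Ba, RT1-Bb and RT1-Db1. The 2 array designs together name 10620 genes, among them other class II genes, such as RT1-DMa and RT1-DMb, that are not members. A probe set, the group of short probes read as 1 measurement, was taken as a member where its only annotated gene symbol was 1 of these 5. That gave 16 probe sets on the array design of the short course, of which 15 were bright enough to be tested, and 8 on that of the long course, of which 6 were tested. The 3 dim ones, which stayed out of every test, were a probe set of RT1-Bb on each design and 1 of RT1-Db1 on the long-course design. The rule for members uses symbols, and signal decided which probe sets were tested. The 5 genes themselves were chosen with earlier results of these data known. Their counts beside the shares of all probe sets are therefore descriptions.

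MHC class II molecules sit on the surface of antigen-presenting cells and show peptides from proteins the cell has taken up to CD4 T cells. Each is a pair of an α and a β chain: in the rat, RT1-Da and RT1-Db1 encode the α and β chain of the RT1-D molecule, and RT1-Ba and RT1-Bb those of the RT1-B molecule. Cd74 is the invariant chain, which holds the groove of a new pair closed, guides it to the endosome and is cut up there. In liver these genes are best known from Kupffer cells (the resident macrophages), dendritic cells and B cells, and much less from hepatocytes. Their promoters share a set of sequence boxes read by the RFX and NF-Y factors, on which the co-activator Ciita acts.

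Total RNA of Wistar rat liver was labelled as coming from animals given 50 mg/kg methylprednisolone, a synthetic glucocorticoid. The short course holds 47 arrays: 4 controls and 16 times from 0.25 to 72 h, with 3 arrays a time, or 2 at 2, 5, 12, 30 and 72 h. The long course holds 44 arrays of another design: 4 controls and 10 times from 6 to 168 h, with 4 arrays each. The controls are marked as such and as time 0, but their descriptions carry the same sentence on treatment as all other arrays. Age, sex, route, dosing schedule and vehicle are not in the labels, and neither is whether replicate arrays are separate animals, so errors and p-values measure only the spread between arrays, which may be technical. Signals are in the deposited array units, in which levels of different probe sets are not comparable, and the 2 courses were scaled apart and are not compared in level.

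In this bulk tissue, fewer cells of a type and less RNA per cell cannot be told apart. The hepatocyte marker Alb was bright in every long-course array, at 8281 to 32923, whereas in the short course its probe set scattered from 0.152 to 32410.4 within the 4 controls. Clec4f, the Kupffer cell lectin, read 522 to 674 in the long-course controls. The B cell marker Cd79b read 8.68 to 70.7 there and the T cell marker Cd3d 2.84 to 29.1, both too dim to be tested. Array 6 h replicate 3 of the short course stood on another scale and was brought to the common one. In the long course, 15 of 44 arrays had higher spike-in signals than the other 29, 1 control among them, and changes of the members are given below within each of these batches.

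The promoters of the members are shown around the boxes named above. They come from RefSeq, build GRCr8, where all 5 genes matched. Capitals mark matches on either strand to an X box pattern of 14 bases or to the Y box, CTGATTGG, whose last letters ATTGG are the CCAAT core and are also marked alone.
Cd74: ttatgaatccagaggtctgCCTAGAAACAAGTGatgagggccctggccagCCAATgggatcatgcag
RT1-Da: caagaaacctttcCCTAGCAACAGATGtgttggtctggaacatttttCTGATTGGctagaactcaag
RT1-Ba: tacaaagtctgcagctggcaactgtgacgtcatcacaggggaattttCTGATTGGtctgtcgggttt
RT1-Bb: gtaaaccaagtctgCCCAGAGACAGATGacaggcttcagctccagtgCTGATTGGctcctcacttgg
RT1-Db1: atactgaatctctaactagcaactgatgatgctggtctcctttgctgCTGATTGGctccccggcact

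These stretches lie at chr18:56526967-56527033 (plus strand) for Cd74, chr20:4515316-4515382 (plus) for RT1-Da, chr20:4576964-4577030 (plus) for RT1-Ba, chr20:4604163-4604229 (minus) for RT1-Bb and chr20:4560226-4560292 (minus) for RT1-Db1, all upstream of the transcription start. The 4 chain genes are neighbours on chromosome 20, with RT1-Db2 the only other protein-coding gene between them, and Cd74 lies apart on chromosome 18. Within windows of 300 bases, 250 before the start to 50 after it, the X box pattern was found in 3 of the 5 members, Cd74, RT1-Da and RT1-Bb, and in 369 of 33469 windows of all genes (1.1%). The Y box was found in the 4 chain genes and in 3.5% of all windows. The CCAAT core was found in all 5, and in 37.5% of all windows. The pattern letters were set with these promoters in view, so the matches describe the windows shown and are no test. A window without a match may still hold a variant of the box, since variants were not searched for.

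In the long course, RNA of the invariant chain and of 3 of the 4 chains was lower than in the controls from about 1 day to 7 days. At 72-168 h the log2 change was -1.70 ± 0.22 (SE) for Cd74, -1.67 ± 0.25 for RT1-Da, -1.33 ± 0.20 for RT1-Ba and -0.73 ± 0.13 for RT1-Db1, whereas RT1-Bb, at -0.39 ± 0.23, did not pass. Median Cd74 signal was 877 in the 4 controls and 241 in the 12 arrays of that window. Changes are differences of log2(signal + 32), which understates those of dim probe sets, and "passed" means an adjusted p under 0.05 in limma, with the Benjamini-Hochberg adjustment over all 11106 probe sets tested. Of the 6 member probe sets, 2 fell at 6-18 h, 4 at 24-48 h and 4 at 72-168 h, and the others did not pass. Over all probe sets tested, 4.67%, 2.62% and 6.01% fell in these windows. The median change of the members was -0.54, -0.97 and -1.03, against -0.03, -0.04 and -0.03 over all probe sets. A moderated F test over all times passed for 4 of 6 members and for 23.8% of all probe sets.

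**Figure D1:**
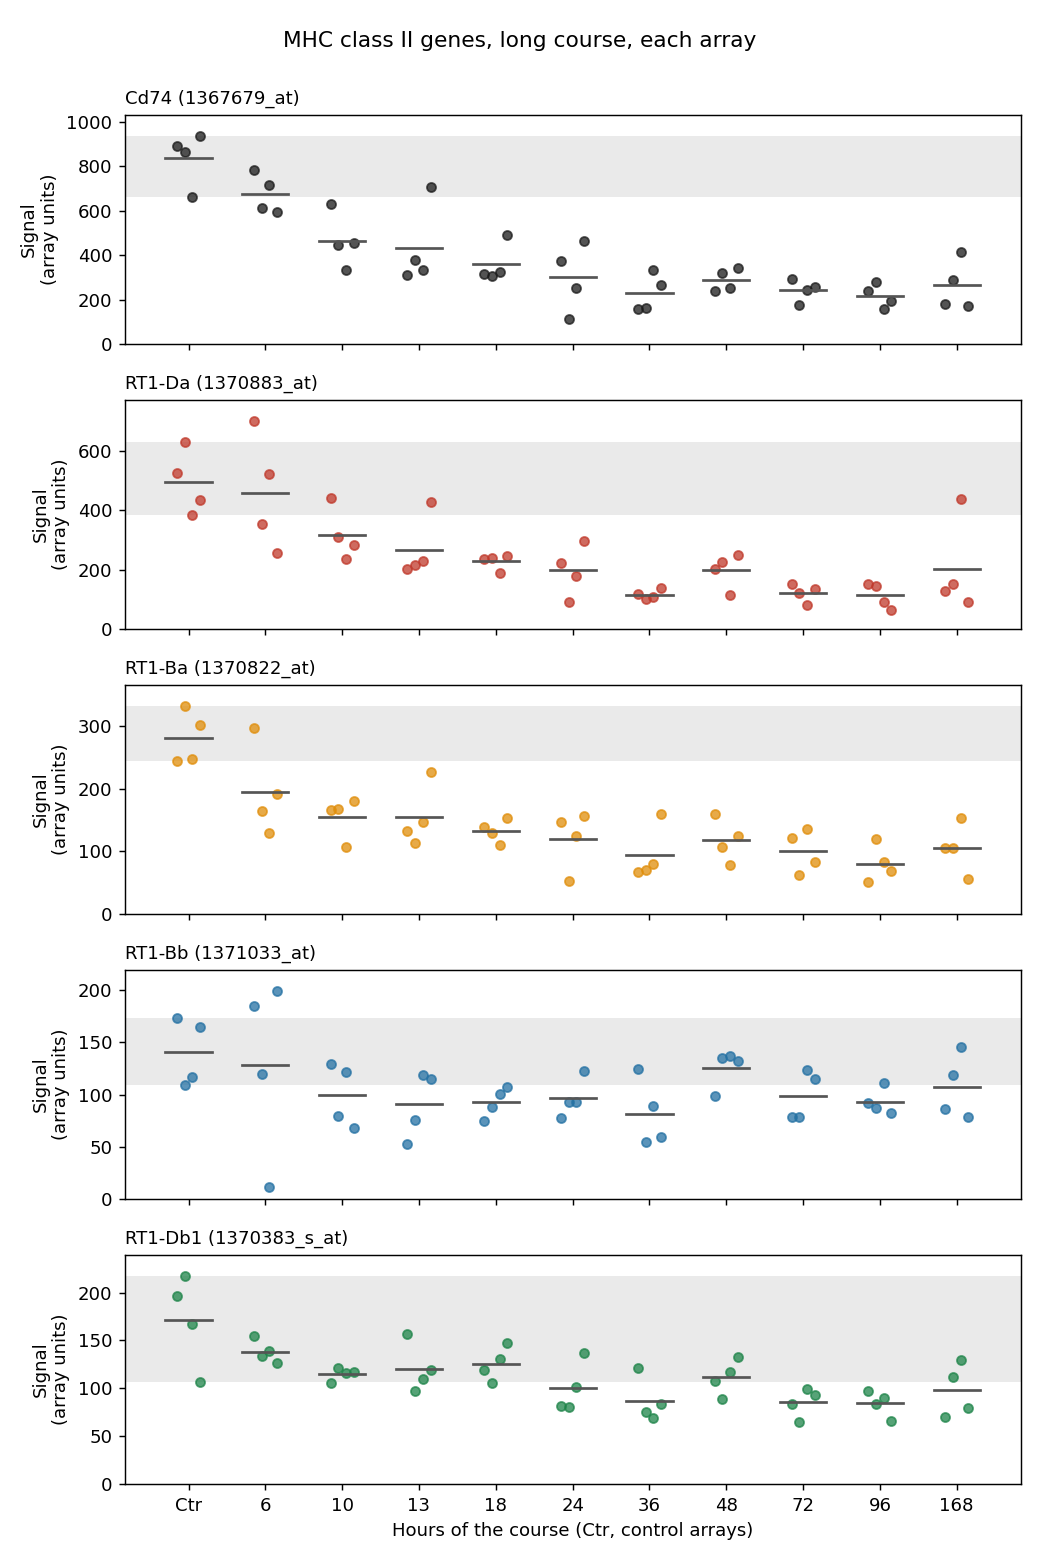
Signal of the brightest probe set of each of the 5 genes (array units, linear axis) in every array of the long course, by hours of the course. Points are arrays, grey bars the mean of 4, and the shaded band is the range of the controls; Cd74, RT1-Da and RT1-Ba sit below that band at 24, 36 and 48 h in all 12 arrays.

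Cd74, the invariant chain, read 889, 864, 659.6 and 937 in the 4 controls. At 6 h the arrays read 782, 609.9, 714 and 595. At 10 h they read 629, 447, 332 and 455. Controls and 6 h arrays overlapped, and those of 10 h all lay below the lowest control. The 13 h arrays read 309.8, 379.8, 332 and 705. The 18 h arrays read 316, 308, 323 and 489. At 24 h they read 373, 113, 252 and 462. By then Cd74 was below every control in each array, with 13 h replicate 4 the only array between 10 and 18 h inside the control range. The 36 h arrays read 158, 162, 336 and 264. The 48 h arrays read 238, 321, 251 and 341. The 72 h arrays read 291, 177, 243 and 257. The level thus lay between 158 and 341 from 36 to 72 h, in arrays that did not overlap the controls. The 96 h arrays read 239, 278, 160.2 and 193. The 168 h arrays read 181, 291, 415 and 173. Cd74 had not come back to the control range at the last time measured.

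By time, the Cd74 change was -0.29 ± 0.27 at 6 h (adjusted p = 0.67), -0.82 at 10 h (adjusted p = 0.057), -0.97 at 13 h (adjusted p = 0.0309) and -1.17 at 18 h (adjusted p = 0.00799). It was -1.78 at 36 h (adjusted p = 4.01e-05), -1.81 at 96 h (adjusted p = 2e-05) and -1.61 at 168 h (adjusted p = 8.81e-05), with n = 4 arrays a time. In the order of mean levels, the controls stood highest, then 6, 10, 13 and 18 h. Below these came 48, 24, 168, 72, 36 and 96 h. The steps from control to 6 h and from 6 to 10 h exceeded the larger SD of the pair, and no other neighbouring pair did.

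RT1-Da, the α chain of RT1-D, read 526, 630.1, 385 and 433 in the controls. Its 6 h arrays read 700.1, 354, 520.4 and 257, across the control range. At 18 h they read 235, 238, 189 and 247. At 36 h they read 119, 99.8, 107 and 137. The 18 h and 36 h arrays lay wholly below the controls, with little spread at 36 h. At 96 h RT1-Da read 153, 146, 90.6 and 63.1. At 168 h it read 127, 151, 436 and 89.9. The 168 h replicate 3, at 436, was the only one of 12 arrays at 72-168 h inside the control range. The change was -0.65 ± 0.24 at 6-18 h (adjusted p = 0.0822), -1.43 ± 0.25 at 24-48 h (adjusted p = 0.000185) and -1.67 ± 0.25 at 72-168 h (adjusted p = 6.99e-06).

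RT1-Ba, the α chain of RT1-B, was read by a brighter probe set and a dim one. The brighter gave 244, 332, 247 and 302 in the controls. At 18 h it gave 139.8, 129, 111 and 153. At 96 h it gave 51.3, 119, 83.5 and 68.4. All 24 arrays from 24 to 168 h lay below the lowest control. Its change was -0.73 ± 0.20 at 6-18 h (adjusted p = 0.0133), -1.18 ± 0.20 at 24-48 h (adjusted p = 0.000167) and -1.33 ± 0.20 at 72-168 h (adjusted p = 1.14e-05). The dim probe set gave 51.2 to 83.7 in the controls and 5.6 to 376 at 6-18 h, a wide scatter. It passed in no window, with changes of 0.05, -0.75 (adjusted p = 0.285) and -0.68 (adjusted p = 0.272), and its correlation with the brighter one over the 44 arrays was 0.32.

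RT1-Db1, the β chain of RT1-D, read 196, 218, 167 and 106 in the controls. At 36 h it read 122, 75, 69 and 83.5. At 96 h it read 97.2, 84.2, 90.2 and 66.3. The 96 h arrays lay below all controls and those of 36 h overlapped control 4, the lowest. Its change was -0.35 ± 0.13 at 6-18 h (adjusted p = 0.0846), -0.62 ± 0.13 at 24-48 h (adjusted p = 0.00327) and -0.73 ± 0.13 at 72-168 h (adjusted p = 0.000186). Its probe set is of a kind that can match more than 1 transcript, and the neighbouring RT1-Db2 was not told apart from RT1-Db1 here.

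RT1-Bb, the β chain of RT1-B, read 173, 109, 117 and 164 in the controls. It read 124, 54.3, 88.8 and 59.7 at 36 h. It read 86.6, 119, 145 and 78.5 at 168 h, overlapping the controls. Its change was -0.43, -0.39 and -0.39 in the 3 windows (adjusted p = 0.269, 0.419 and 0.337). The 95% interval at 72-168 h, -0.86 to 0.08, leaves both no change and a fall as large as that of RT1-Db1 possible.

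**Figure D2:**
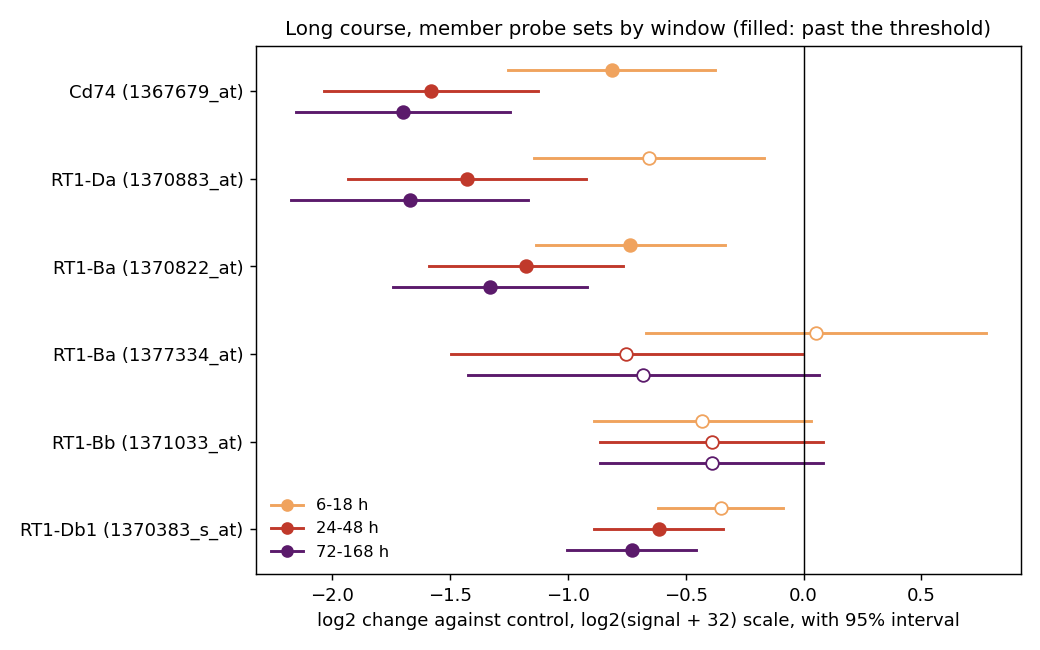
log2 change against control, with its 95% interval, of the 6 tested member probe sets in the 3 windows of the long course (16, 12 and 12 arrays against 4 controls). Filled points passed: 2 at 6-18 h and 4 in each later window.

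The members' levels were lower late than early in the course. From 6-18 h to 72-168 h, 5 of the 6 member probe sets fell, while 12.1% of all probe sets fell between these windows. Among the 5 is the dim RT1-Ba probe set, which at 6-18 h stood at 0.05 against the controls. RT1-Da fell by a further 1.02 on the log2 scale (adjusted p = 1.39e-05), Cd74 by 0.89 (adjusted p = 2.38e-05), the brighter RT1-Ba probe set by 0.60 (adjusted p = 0.00116) and RT1-Db1 by 0.38 (adjusted p = 0.00177). The dim RT1-Ba probe set fell by 0.73 (adjusted p = 0.0269), a call lost with array weights (adjusted p = 0.0551), in the arrays of lower spike-in signal alone (0.158), or on leaving out any of 3 single arrays: replicate 1 of 18 h (0.053), replicate 3 of 6 h (0.0516) and replicate 1 of 96 h (0.0614). From 36 h on there was no steady trend by time: the Cd74 change was -1.78 at 36 h, -1.45 at 48 h and -1.61 at 168 h, and that of RT1-Da -1.82, -1.21 and -1.36. RT1-Bb did not pass, with a difference of 0.04 (adjusted p = 0.891). By single times, 0 of the 6 passed as lower at both 6 and 10 h, 1 did at 13 h, and 3 did at both 18 and 48 h. At each of the other times from 24 to 168 h, 4 of 6 passed as lower. Of all probe sets tested, the share that passed as lower was 1.80% (6 h), 3.48% (10 h), 2.22% (13 h), 2.47% (18 h) and 0.693% (24 h). It was 2.67% (36 h), 1.75% (48 h), 2.94% (72 h), 4.54% (96 h) and 4.03% (168 h). In limma, an unadjusted p under 0.05 was reached by 0 members at 6 h and by 3 at 10 h. The share of all probe sets at that level is not given here, so these 2 counts are no result about the members.

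Groups were also apart as whole sets of arrays. In 4 of the 6 member probe sets, every array of 24-48 h lay below every control, which held for 0.819% of all probe sets. The 4 were Cd74, RT1-Da and both RT1-Ba probe sets, of which the dim one did not pass in that window. RT1-Db1, which passed there, overlapped the controls. At 72-168 h the same was true of 2 of 6, Cd74 and the brighter RT1-Ba probe set, against 1.35% of all.

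Within the 29 arrays of lower spike-in signal, 3 of them controls, the difference of means at 72-168 h was -1.66 for Cd74, -1.75 for RT1-Da, -1.25 for the brighter RT1-Ba probe set and -0.97 for RT1-Db1. Within the 15 arrays of higher spike-in signal, against their only control, it was -1.86, -1.49, -1.47 and -0.14. RT1-Db1 was thus close to that control, array 4, which read 106, and its differences there were 0.20 at 6-18 h and 0.10 at 24-48 h. With the batch as a block, the RT1-Db1 change at 72-168 h was -0.74 (adjusted p = 0.000154). At 6-18 h the count of 2 became 1 without control 1, 2 or 4. Without control 4 or control 1, Cd74 had an adjusted p of 0.0579 or 0.052, and without control 2 or control 4, RT1-Ba had 0.0524 or 0.0529. The 1 member that passed without control 4 was RT1-Db1, at -0.53 (adjusted p = 0.0126).

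Of 42 other genes listed for class II loading, processing and control, 29 were tested in the long course. At 6-18 h 4 fell and 0 rose, at 24-48 h 6 fell and 0 rose, and at 72-168 h 5 fell and 1 rose. Of all probe sets tested, 4.67%, 2.62% and 6.01% were lower in these windows. The shares that rose are not given here, so the counts that rose are no result about the list. The median change of the 29 genes at 72-168 h was -0.18, against -0.03 over all probe sets. The 4 largest at 72-168 h were Lgmn, the asparaginyl endopeptidase of the endosome (-1.20 ± 0.18, adjusted p = 6.53e-06), Cst3, an inhibitor of cathepsins (0.77 ± 0.15, adjusted p = 0.000298), Irf1, an interferon-induced transcription factor (-0.68 ± 0.21, adjusted p = 0.0314), and Cd63, a late endosomal membrane protein (-0.66 ± 0.17, adjusted p = 0.00931). RT1-DMb, the β chain of the molecule that loads peptide onto class II, fell by 0.64 (adjusted p = 0.00194). Its partner RT1-DMa, at -0.46, had an adjusted p of 0.0607. Ciita, the co-activator of class II genes, read 92.7 on average in the controls, and its change of -0.51 ± 0.18 had an adjusted p of 0.0572. Ctss, the cathepsin that trims the invariant chain, was at -0.05 (adjusted p = 0.912), and Rfx5, a subunit of RFX, at -0.12 (adjusted p = 0.578). At 24-48 h the 4 largest were Lgmn (-1.10), Irf1 (-0.89), Cd63 (-0.68) and RT1-DMb (-0.61). At 6-18 h they were all that passed: Lgmn (-0.87), Cd63 (-0.74), Ctsz, a lysosomal cathepsin (-0.42), and Marchf8, a ubiquitin ligase (-0.36).

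**Figure D3:**
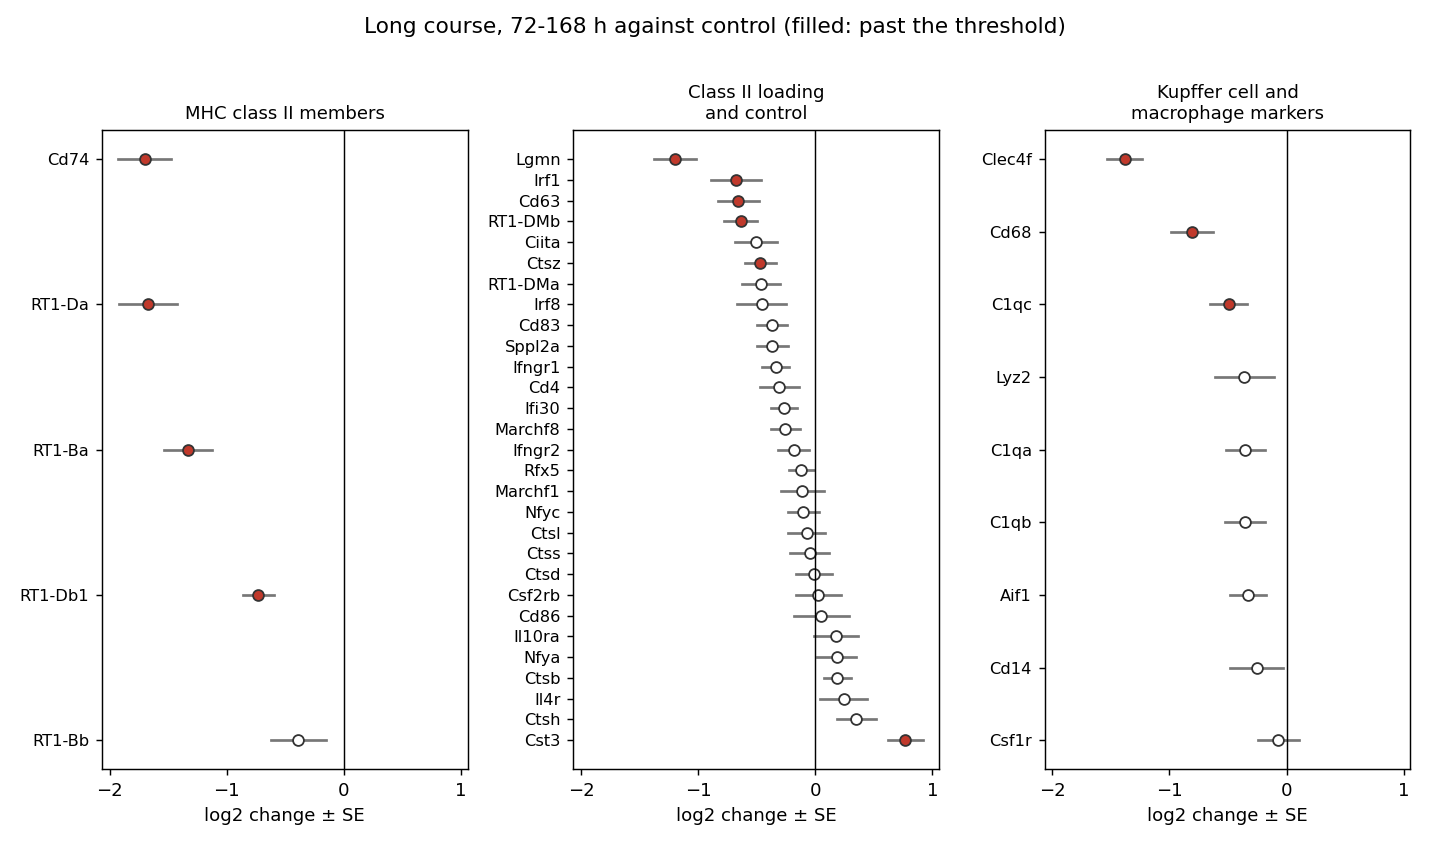
log2 change ± SE at 72-168 h of the long course (12 arrays against 4 controls) for the 5 members, by their brightest probe set, for 29 genes of class II loading and control, and for 9 Kupffer cell and macrophage markers. Filled points passed; within its own panel, Cd74 lies furthest left among the members, Lgmn among the loading genes and Clec4f among the markers, with Csf1r near 0.

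Markers of cells that carry class II were read beside these values. All 9 tested Kupffer cell and macrophage markers of 14 listed were below 0 in each window. Of these markers 3, 5 and 3 passed as lower, against 4.67%, 2.62% and 6.01% of all probe sets. Their summed signal was 3144 to 3457 in the controls, 1438 to 3110.1 at 6-18 h, 1781 to 2564 at 24-48 h and 1644 to 3974 at 72-168 h. Summed signals, here and below, add array units of different probe sets, so the brightest probe sets weigh most. At 72-168 h Clec4f was at -1.38 ± 0.15 (adjusted p = 1.17e-08), Cd68, a lysosomal protein of macrophages, at -0.81 (adjusted p = 0.00163), C1qc, a complement subunit, at -0.50 (adjusted p = 0.0395), and Csf1r, the receptor for macrophage colony-stimulating factor, at -0.07 (adjusted p = 0.873). Clec4f read 143 to 341 in that window, below all controls, and it also fell from 6-18 h to 72-168 h, by 0.69 (adjusted p = 1.8e-06). The array with the highest summed signal of this list, 3974, was 168 h replicate 3, in which RT1-Da was at its control level. Without that array the member count at 72-168 h was 4, as with it. Of 4 dendritic cell markers tested, the lowest adjusted p in limma was 0.0683, 0.191 and 0.0545 in the 3 windows. All 3 B cell markers on the array were too dim, with a summed signal of 46.8 to 96.8 in the controls and 19.3 to 117 at 72-168 h. The part of these markers in the class II result was not tested.

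Over the 44 long-course arrays, Cd74, RT1-Da and RT1-Ba moved together. Pearson's r was 0.91 between Cd74 and RT1-Da, 0.87 between Cd74 and the brighter RT1-Ba probe set, 0.71 between Cd74 and RT1-Db1, and 0.27 between Cd74 and RT1-Bb. The genes most like the members' mean, out of 8064, were Clec4f (0.81), Anxa3 (0.80), Ccl6 (0.79), RT1-DMb (0.79) and Arpc1b (0.77). Over the 11 group means they were Serpinb9 (0.98), RT1-DMb (0.96), Clec4f (0.96), Dap (0.95) and Gstp1 (0.95). Serpinb9 had an r of 0.45 over the 44 arrays. The points share the array scaling and the time course, and these are descriptions.

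In the short course the controls themselves were far apart in class II signal. Cd74 (probe set X13044_at) read 1035, 4646, 3046 and 884 in controls 1 to 4. RT1-Da (M15562_g_at) read 1671, 7387, 4963 and 3084, and RT1-Bb (M36151cds_s_at) read 1143, 3396, 2303 and 739. RT1-Db1 (X53054_g_at) read 560.2, 2127, 913 and 448. Controls 2 and 3 were the higher in each of these, so the range of 4 controls took in most treated arrays. The summed signal of 7 Kupffer cell and macrophage markers in controls 1 to 4 was 8174, 11499, 11382 and 9518, and that of 3 B cell markers was 892, 857, 708 and 762.

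With this spread, few comparisons with the controls passed. In limma over 6118 probe sets, 0 of 15 member probe sets passed at 0.25-0.75 h, 1-2 h, 12-18 h and 30-72 h, where 3.42%, 12.2%, 0.997% and 0.0981% of all probe sets did. The unadjusted p was under 0.05 for 6, 4, 1 and 0 of the 15. At 4-8 h 1 of 15 rose, RT1-Ba M22366_at, while 16.4% of all probe sets rose. The F test over all times passed for 0 of 15 members and for 33.6% of all probe sets, with 3 members at an unadjusted p under 0.05. The shares of all probe sets at an unadjusted p under 0.05 are not given here. The unadjusted counts are therefore no result about the members. With all 4 controls, 15 of 15 values were above 0 at 0.25-0.75 h and 14 at 1-2 h, with medians of 0.59 and 0.41, against 0.08 and 0.06 over all probe sets. At 12-18 h 14 of 15 were below 0, with a median of -0.39 against -0.09, and at 30-72 h 8 were above and 7 below. Single controls moved these medians. Without control 4, the 0.25-0.75 h and 1-2 h medians were 0.30 and 0.14, with 13 and 12 values above 0, and without control 1 they were 0.38 and 0.22, with 13 and 11 above 0. Without control 2 they were 1.04 and 0.81, and the 12-18 h median was -0.03, with 9 of 15 below 0. The 12-18 h median was -0.18 without control 3, and -0.67 without control 1 or control 4. The 4-8 h median, 0.25 with all controls, was 0.08, 0.51 and -0.17 without control 1, 2 or 4, and that of 30-72 h ran from -0.28 to 0.35. These comparisons share the same controls, and probe sets of 1 gene read the same RNA.

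**Figure D4:**
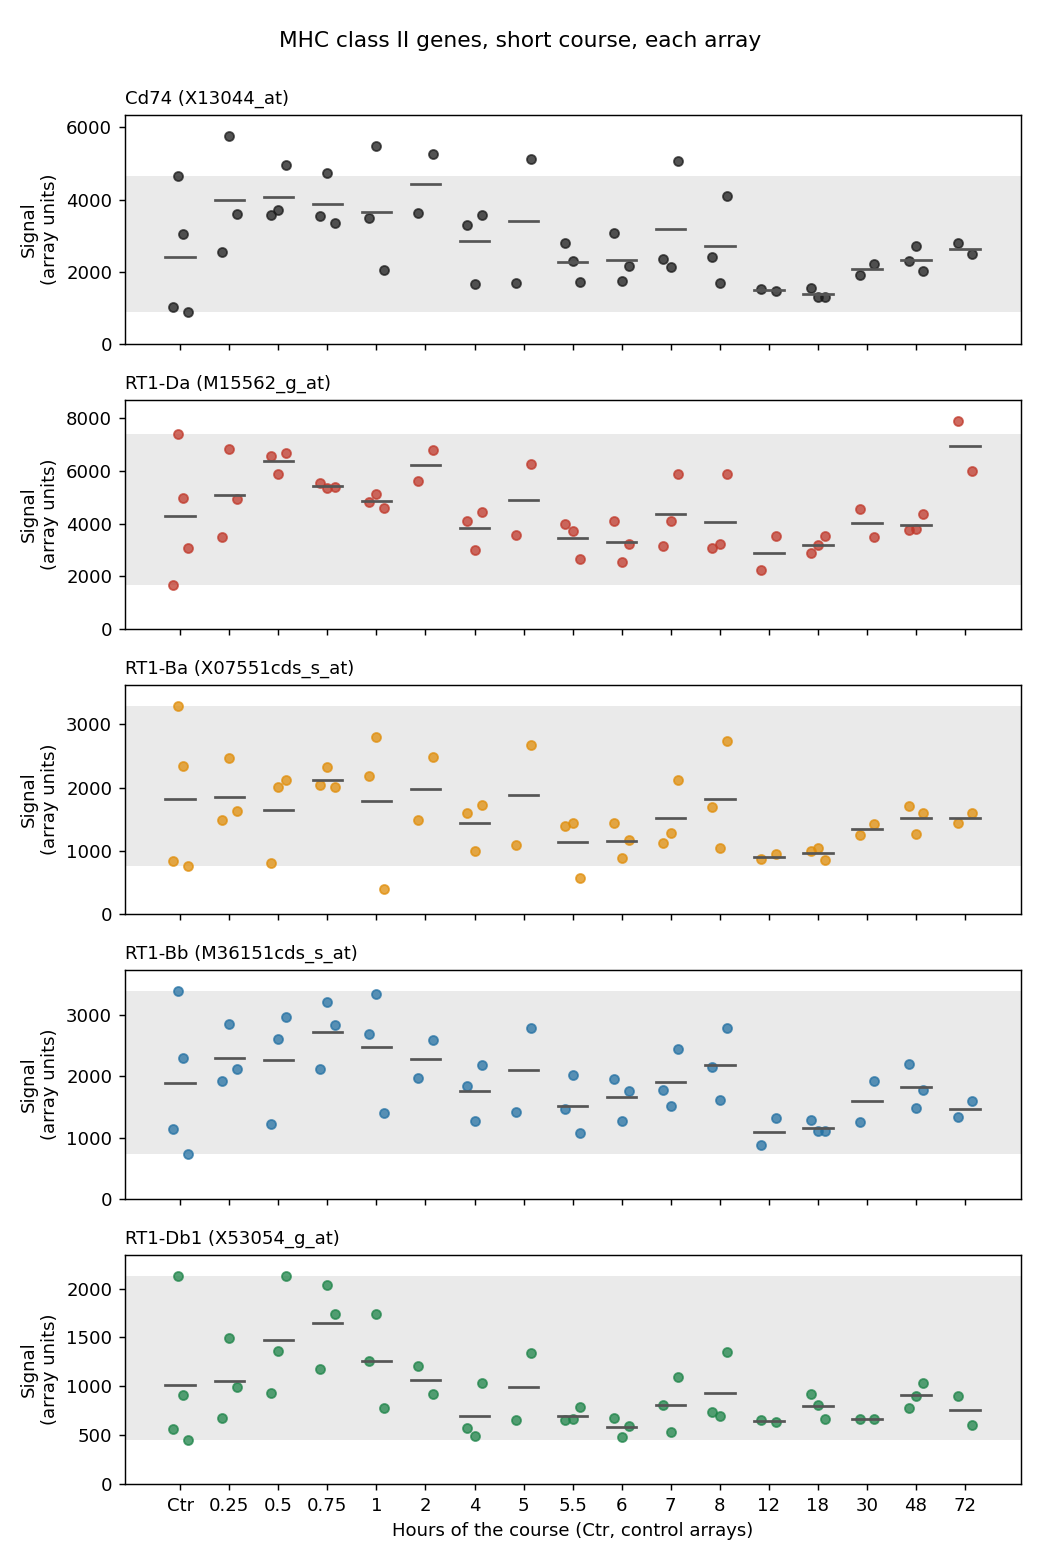
Signal of the brightest probe set of each of the 5 genes (array units, linear axis) in every array of the short course, by hours of the course. Points are arrays, grey bars group means, and the shaded band is the range of the 4 controls, which for Cd74 runs from 884 to 4646 and holds most arrays.

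Cd74 (X13044_at) read 2555, 5773 and 3615 at 0.25 h. At 0.5 h it read 3574, 3701 and 4970.3. At 2 h it read 3628 and 5266. These arrays ranged from the middle of the control range to above it. At 4 h it read 3295, 1667 and 3586. At 6 h it read 3074, 1738 and 2172. At 8 h it read 2410.1, 1697 and 4089. The spread at 4-8 h was wide, from 1667 to 5139 over 17 arrays, of which 2 lay above the highest control. At 12 h it read 1539 and 1479. At 18 h it read 1564, 1319.7 and 1293. At 72 h it read 2806 and 2486. The 5 arrays of 12 and 18 h stood close together and low, though above controls 1 and 4. The change was 1.01 ± 0.34 at 0.25-0.75 h (adjusted p = 0.079), 1.00 ± 0.38 at 1-2 h (adjusted p = 0.0774) and -0.39 ± 0.38 at 12-18 h (adjusted p = 0.74). In the order of mean levels, 2 h stood highest and 18 h lowest, and no neighbouring pair of times differed by more than the larger SD of the pair.

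RT1-Ba M22366_at, the probe set that rose at 4-8 h, read 477, 694, 489 and 484 in the controls and 502 to 950.4, with a median of 688, in the 17 arrays of 4-8 h. Its change was 0.39 ± 0.15 (adjusted p = 0.0465), and 8 of 17 arrays lay above the highest control. This call ended with the arrays centred on their median, among other settings, and in 25 of 47 fits that left out an array. The other RT1-Ba probe sets, K02815_s_at and X07551cds_s_at, were at -0.08 and -0.11 there.

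The early counts moved with several settings, array weights among them, and moved most on leaving out control 2. In the fit without that control, 6, 5 and 4 of the 15 member probe sets passed as higher at 0.25-0.75 h, 1-2 h and 4-8 h. Cd74 X13044_at was then at 1.44 at 0.25-0.75 h, and at 0.65 without control 4, the lowest. Control 2 read highest of the controls in the Cd74, RT1-Da, RT1-Bb and RT1-Db1 probe sets listed above, so leaving it out raises their changes. The share of all probe sets passing in that fit is not given here, so these counts are no result about the members. RT1-Da M15562_g_at was at 0.57 ± 0.25 at 0.25-0.75 h with all controls (adjusted p = 0.166), RT1-Bb M36151cds_s_at at 0.54 ± 0.29 (adjusted p = 0.278) and RT1-Db1 X53054_g_at at 0.62 ± 0.29 (adjusted p = 0.207). A pair of RT1-Bb probe sets scattered most. M15358cds_at ran from 7.39 to 3040.4 within the controls, with a change of 0.59 ± 1.08 at 0.25-0.75 h, and U65217_i_at from 3.33 to 184, with 1.51 ± 0.78 (adjusted p = 0.261). X56596_at of RT1-Bb was at 0.59 and X53054_at of RT1-Db1 at 0.67 there.

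**Figure D5:**
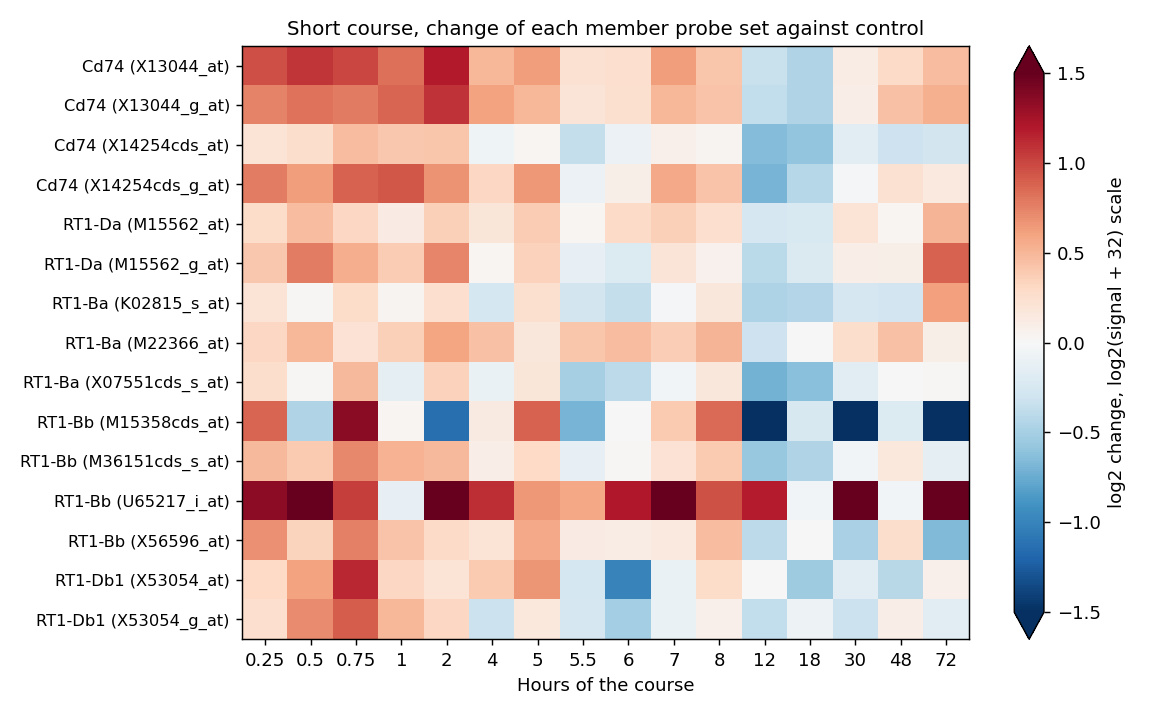
log2 change against control of the 15 tested member probe sets (rows) at the 16 times of the short course (columns), in colour from -1.5 to 1.5 on the log2(signal + 32) scale. Red prevails up to 2 h and blue at 12 and 18 h, and the RT1-Bb probe sets M15358cds_at and U65217_i_at scatter most.

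A comparison without the controls was added after these values were seen: 12-18 h (5 arrays) minus 4-8 h (17 arrays). All 15 member probe sets were below 0, with a median of -0.55, and 7 passed as lower, while 25.9% of all probe sets did. They were the 4 of Cd74 (-0.56 to -0.89), RT1-Ba M22366_at (-0.55, adjusted p = 0.00312), RT1-Bb M36151cds_s_at (-0.66, adjusted p = 0.0362) and RT1-Da M15562_at (-0.49, adjusted p = 0.0395). The median over all probe sets was itself -0.21. With the arrays centred on their median, only RT1-Ba M22366_at passed (adjusted p = 0.0401), and with 6 h replicate 3 on its deposited scale the count was 0. Single arrays moved the count as well. Leaving out replicate 1 or 2 of 12 h gave 2 or 1, leaving out replicate 2 or 3 of 18 h gave 3 or 4, and dropping the second 5 h array gave 3. The planned comparison of 30-72 h with 4-8 h passed for 0 of 15 in limma, against 36.7% of all probe sets. At an unadjusted p under 0.05 the count was also 0, and the share of all probe sets at that level is not given here.

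The list of class II loading and control had 28 genes tested in the short course: 1, 3 and 5 rose at 0.25-0.75, 1-2 and 4-8 h, and 0, 0 and 1 fell. Of all probe sets, 3.42% passed in either direction at 0.25-0.75 h and 12.2% at 1-2 h, and 16.4% rose at 4-8 h. The counts of the list that rose were near these shares. The share of all probe sets that fell at 4-8 h is not given here. Il10, a cytokine that dampens macrophages, passed in all 3 windows (1.02, 1.09 and 0.46). Ctss rose by 0.55 at 4-8 h (adjusted p = 0.00831), and Ctsd, a lysosomal aspartic protease, fell by 0.38 there (adjusted p = 0.017). RT1-DMa and RT1-DMb passed in no window against the controls, with changes of 0.38 (adjusted p = 0.0767) and 0.02 (adjusted p = 0.956) at 4-8 h. Macrophage markers diverged at 4-8 h. Clec4f fell by 1.39 (adjusted p = 0.00207), Cd14, the lipopolysaccharide co-receptor, rose by 2.01 (adjusted p = 2.74e-05) and Lyz2, lysozyme, rose by 0.88 (adjusted p = 0.0234). At 30-72 h Clec4f was at 0.26 and Cd14 at -0.12, neither past the threshold. The summed signal of these markers was 8174 to 11499 in the controls and 11410.1 to 24481 at 4-8 h, and the 3 B cell markers summed to 708 to 892 and 624 to 1227. Their part in the class II values was not tested.

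Over the 47 short-course arrays, Pearson's r between 2 probe sets of the same gene had a median of 0.76 over 17 pairs (from -0.46 to 0.97), and between probe sets of different members a median of 0.60 over 88 pairs. The genes most like the members' mean, of 3574, were Cd53 (0.76), Tnfrsf21 (0.72), Egr1 (0.72), Cd48 (0.71) and Socs2 (0.70). Over 17 group means they were Egr1 (0.88), Nr4a1 (0.84), Ackr3 (0.81), Slc1a3 (0.80) and Slc22a2 (0.79). Slc22a2 had an r of 0.39 over the 47 arrays.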

How the data were processed

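The values the authors deposited are intensities on a linear scale, 1 for each probe set of an array, for 2 Affymetrix designs with 8799 and 15923 probe sets. How scans became signals is not given in the sources used here. Arrays of a course shared a 2% trimmed mean: 801 (short) or 150.1 (long). The short-course array that stood apart, 6 h replicate 3, had 150.2 and was rescaled to 801. 0 pairs of arrays were identical. Titles placed the arrays, although the description of the long-course array titled 96 h replicate 1 says 72 h, and that of 48 h replicate 1 carries the wording of the short course.

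The scale was log2(signal + 32). Probe sets for Affymetrix controls, and those below the 30th percentile of mean signal were left out. For each course, limma 3.58.1 (R 4.3.3) fitted 1 mean per time to all its arrays, with a variance trend. Windows are unweighted means of times, and p-values were adjusted (Benjamini-Hochberg) over all probe sets tested. The fit was tested on simulated data. Gene names come from the platform annotation, promoters from RefSeq (GRCr8).

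The members, lists, windows and settings were chosen with earlier results of these data known. Every tested member probe set is named, by identifier in the short course and by gene in the long course. The untested ones are given by gene only. Of the loading list the 4 largest changes past the threshold in a long-course window are named, plus genes chosen after their values were seen: RT1-DMa, RT1-DMb, Ciita, Ctss and Rfx5, and those named in the short course. Each listed gene stands for its brightest probe set. Marker lists gave counts, summed signals and defining markers; hepatocyte, T cell, NK cell, neutrophil, endothelial, stellate, bile duct and red cell lists were also read. The number of arrays limits the precision.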

Additional observations from a re-analysis of the deposited data

Results flagged for a closer look

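In 81 groups of 4 arrays or more examined for the members, 7 had an array far from the others, where chance gives about 5%, or 1 in 20. In the long course, Cd74 read 489 in 18 h replicate 4 and 308 to 323 in the other arrays of that time. RT1-Da read 425 in 13 h replicate 4, against 201 to 227. The brighter RT1-Ba probe set read 107 in 10 h replicate 3, against 166 to 181, and 159.8 in 36 h replicate 4, against 68.0 to 79.7. The dim RT1-Ba probe set read 5.73 in 24 h replicate 3, against 47.6 to 49.5. RT1-Bb read 98.7 in 48 h replicate 1, against 132 to 136. The description of that array carries the wording of the short course. In the short course, RT1-Ba M22366_at read 694 in control 2, against 477 to 489 in the other controls.

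Effects differed between windows of a course by the test of the difference in limma. Between 6-18 h and 72-168 h of the long course, the log2 difference was -0.89 for Cd74, -1.02 for RT1-Da, -0.60 and -0.73 for the brighter and the dim RT1-Ba probe set, and -0.38 for RT1-Db1. Between 4-8 h and 12-18 h of the short course, it was -0.83, -0.82, -0.56 and -0.89 for Cd74 X13044_at, X13044_g_at, X14254cds_at and X14254cds_g_at, -0.55 for RT1-Ba M22366_at, -0.66 for RT1-Bb M36151cds_s_at and -0.49 for RT1-Da M15562_at. That comparison was added after its values were seen. Over all probe sets its median was -0.21, and 25.9% were lower. The count was 1 with median centring, and 0 with 6 h replicate 3 on its deposited scale. The call of the dim RT1-Ba probe set was lost with array weights.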

How the results depend on the processing

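In the long course the counts of 4 members lower at 24-48 h and at 72-168 h were 4 under all 12 other settings and all 44 fits that left out an array. At 6-18 h the count of 2 was 4 in the arrays of lower spike-in signal alone and ranged from 1 to 3 over fits without 1 array. From 6-18 h to 72-168 h the count of 5 was 3 in those arrays alone, with the brighter RT1-Ba probe set at -0.48 (adjusted p = 0.0924), and 4 to 5 without 1 array. In the short course the 1 member higher at 4-8 h became 0 with no filter on signal, median centring, quantile normalization, array weights, the replicate number as a block, arrays of low correlation left out, or 6 h replicate 3 on its deposited scale, and ranged from 0 to 4 without 1 array. At 0.25-0.75 h the count of 0 became 2 with array weights, and 0 to 6 without 1 array. At 1-2 h it became 1 with probe sets below the median signal left out and 2 with array weights, and 0 to 5 without 1 array. The F test count of 0 became 7 with array weights and 1 with arrays of low correlation left out, and 0 to 6 without 1 array. For 30-72 h minus 4-8 h, 0 became 1 with arrays of low correlation left out. For 12-18 h minus 4-8 h, 7 became 1 with median centring, 2 with quantile normalization, 1 with arrays of low correlation left out and 0 with 6 h replicate 3 on its deposited scale, and 1 to 7 without 1 array. Shares of all probe sets under the changed settings are not given here, so these counts show only how the calls moved. The cause of these moves was not tested.

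Cd74 X14254cds_g_at at 4-8 h, 0.33 in the report's fit, was -0.0608 with the replicate block (adjusted p = 0.906) and -0.0691 without control 4 (adjusted p = 0.897). Of 129 comparisons of single probe sets, 89 passed under no setting, and 42 of these changed sign under some setting. The replicate numbers were not taken as pairs: the median correlation of deviations of arrays with the same number was -0.012 (short course) and 0.058 (long course), and 7 of 47 and 18 of 44 arrays lay closest to one of their own number. In the long course the number follows the spike-in batch, since all 11 arrays numbered 4 and 0 of 11 numbered 1 had the higher spike-in signal. The number of arrays limits the short course, where control levels of Cd74 had an SD of 1.15 on the log2 scale.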

Other observations

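Of other cell types' lists at 72-168 h of the long course, 1 of 7 hepatocyte genes rose, the glucocorticoid-induced Tat (0.91, adjusted p = 0.024). Of 3 T cell genes 1 fell, the pan-leukocyte Ptprc (-0.55, adjusted p = 0.00218), of 7 stellate cell and fibroblast genes 1, the collagen Col3a1 (-0.87, adjusted p = 0.00689), and the 1 bile duct gene tested, Epcam, fell by 0.67 (adjusted p = 5.66e-05). Over all probe sets, 6.01% fell at 72-168 h. The share that rose is not given here, so the 1 hepatocyte gene that rose is no result about that list. The lowest adjusted p in limma was 0.0522 among 5 endothelial genes and 0.747 among 2 red cell genes. It was 0.719 for the 1 NK cell gene and 0.97 for the 1 neutrophil gene tested.

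At 4-8 h of the short course, all 3 neutrophil genes tested rose, while 16.4% of all probe sets did. Of the other lists, 1 of 7 hepatocyte genes rose and 2 fell, and 2 of 4 endothelial genes rose and 1 fell. Of NK cell genes 1 of 2 rose, of stellate cell and fibroblast genes 1 of 5 rose, and of bile duct genes 1 of 2 fell. The share of all probe sets that fell in that window is not given here, so the counts that fell are no result about these lists. The lowest adjusted p was 0.207 among 4 T cell genes and 0.773 among 2 red cell genes.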
